A study of Mus musculus with 2 samples.

Results

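The GATA transcription factor genes and their FOG (Friend of GATA) cofactor genes form a set of 8: Gata1, Gata2, Gata3, Gata4, Gata5, Gata6, Zfpm1, which encodes FOG1, and Zfpm2, which encodes FOG2. They are 8 of 21887 protein-coding genes on the assembled mouse chromosomes. They were taken by name, not by their ARID4B signal, but with earlier results of these data known. ARID4B, a chromatin protein with an AT-rich interaction domain that works with SIN3 and histone deacetylases, was mapped by ChIP-seq in a pool of 108 testes from wild type mice of hybrid C57BL6/J and 129/SvEv strain at postnatal day 1.5. There was 1 library from anti-ARID4B chromatin and 1 input library as the control, so no value has a replicate and no p-value is given. The number of 108 testes is stated for the anti-ARID4B library, and none is given for the input library. The testes were whole and came from pooled animals, so an interval cannot be assigned to a cell type, and a list of intervals holds no RNA against which the tissue label could be checked. No sample without ARID4B was analysed here, so the share of a signal that depends on ARID4B was not tested.

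GATA factors bind DNA through a pair of zinc fingers. FOG proteins do not bind the GATA sites themselves but attach to the amino-terminal finger and recruit corepressors such as the NuRD complex and CtBP. In the embryonic gonad, Gata4 and Zfpm2 are needed for testis formation, Gata4 and Gata6 are active in the somatic cells of the testis, and Gata1 is known both from red blood cell formation and from Sertoli cells after birth. Gata2 and Gata3 are best known for roles in blood stem cells and in T cells, and Gata5 for roles in heart and endoderm.

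The 8 genes fell into 4 with ARID4B intervals inside their records and 4 with none in the record or within 50 kb (Gata1, Gata2, Gata3 and Gata5). Those with intervals were Gata4 (2 intervals), Gata6 (1), Zfpm1 (3) and Zfpm2 (1), which is 2 of the 6 GATA genes and both FOG genes. Among all protein-coding genes, 52.3% had an interval in the record or within 50 kb and 30.7% had one in the record or within 1 kb, so the count of 4 of 8 lies near the first share and above the second. An interval is a stretch that the authors called as enriched over input, and each carries the authors' evidence score. The scale of the score is not stated. It is read here as larger for stronger evidence, an assumption on which every rank rests, and is used only to order intervals within the list. It had a median of 124.98 over all 6632 intervals. All 7 intervals inside the records scored above that median, from 138.12 to 1114.18, with a median of 186.58. Their order by best score was Gata6, Gata4, Zfpm1, Zfpm2. With 1 library the spread of a score is unknown, so whether neighbours in this order differ cannot be told.

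**Figure D1:**
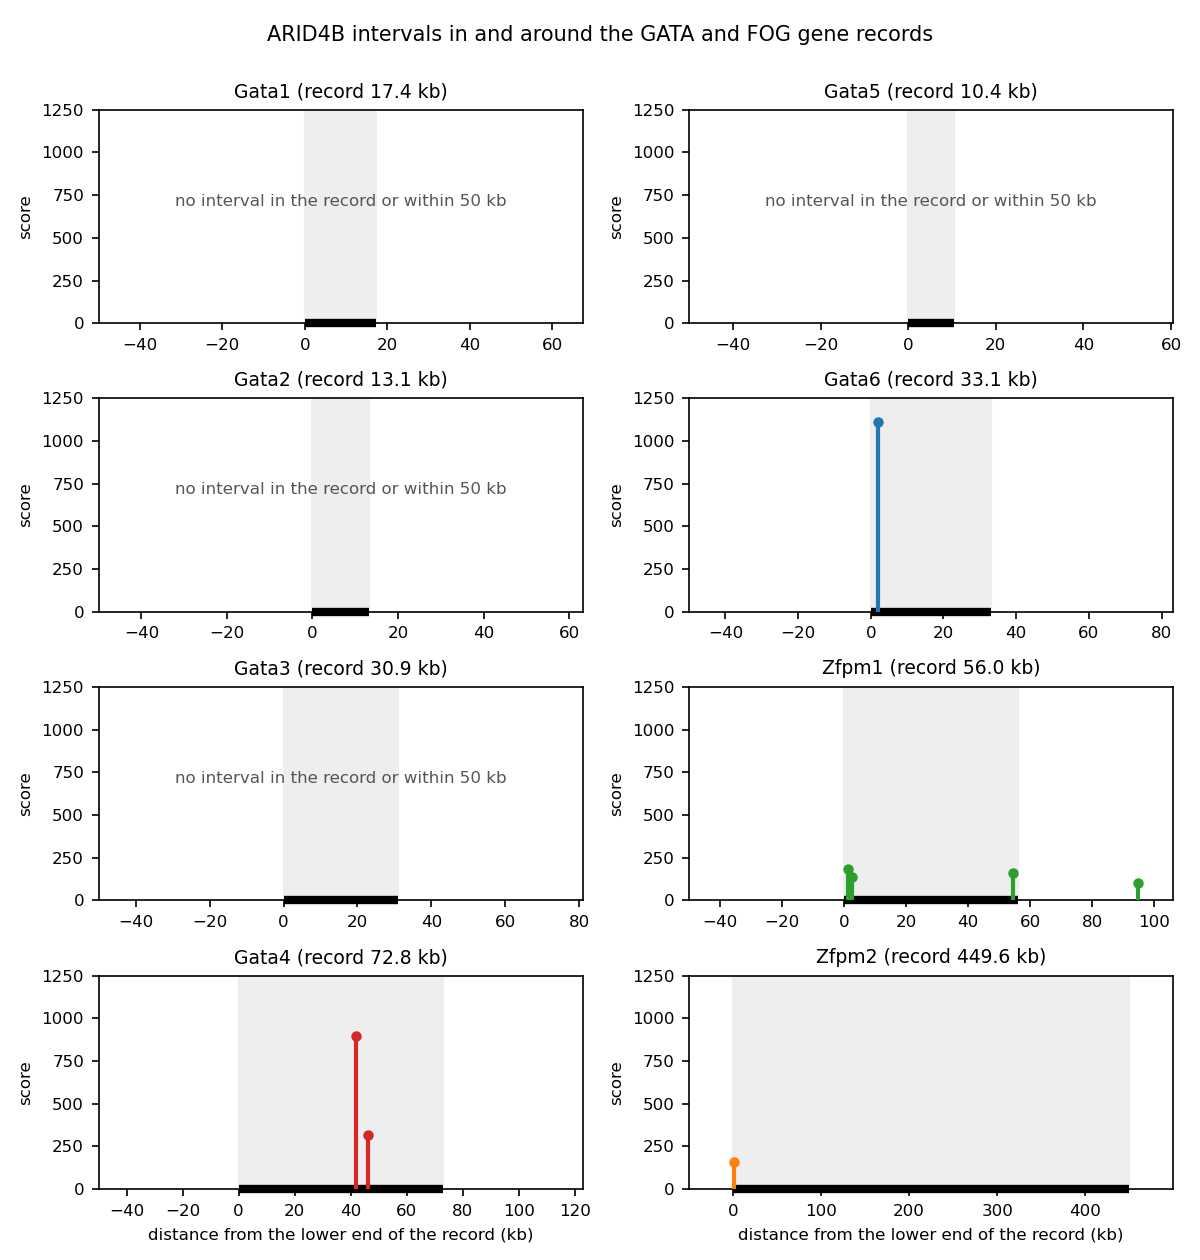
Each panel shows 1 gene record (grey area and black bar) with 50 kb on either side, the horizontal axis giving the distance in kb from the end of the record with the lower coordinate, and each stem standing for 1 ARID4B interval with the authors' score as its height (no replicates, so no error bars). Gata6 and Gata4 hold the tall stems (1114.18 and 894.01), the stems of Zfpm1 and Zfpm2 stay below 187, and the panels of Gata1, Gata2, Gata3 and Gata5 are empty.

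Gata6, a zinc finger factor of heart, gut and gonadal somatic cells, had the strongest interval of the 8 genes. It lay at chr18:11052992-11055766 on build GRCm38, was 2775 bp wide and scored 1114.18, rank 10 of 6632. The interval began 482 bp inside the lower end of the 33.1 kb Gata6 record (chr18:11052510-11085636). That end overlaps the end of Gata6os, a long noncoding RNA gene, and the interval lay 425 bp from the Gata6os record without reaching it. The rest of the Gata6 record and 50 kb on both sides of it held no second interval. In the score order of the whole list the Gata6 interval stood just below those in Tsc22d2 (1160.13) and Irf2bpl (1131.25) and just above those in Ptma (1026.46) and Arhgef17 (964.78).

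Gata4, the GATA factor that acts with FOG2 in the forming testis, had 2 intervals in the middle of its record and none at either end. The stronger lay at chr14:63239618-63242012 (2395 bp, score 894.01, rank 16) and the weaker at chr14:63244040-63246038 (1999 bp, score 319.27, rank 469). Only 2027 bp separated them, and 6.17% of the gaps between neighbouring intervals of the list were as small. The pair spanned 6421 bp and lay 40.7 kb from the lower and 25.7 kb from the upper end of the 72.8 kb record (chr14:63198914-63271712). No start of transcription was available for Gata4, so whether either interval lies at a start inside the record was not tested. At least 2 intervals in a record were found for 2.6% of protein-coding genes, and Gata4 and Zfpm1 were among them. The next genes in the score order were Psma7 with Ss18l1, which share 1 interval (938.92), and Zfp703 (922.31) above Gata4, and Mafa (876.04) and Tnrc18 (848.37) below it. The neighbouring genes Neil2 and Fdft1, whose records lie 4760 bp and 17227 bp from that of Gata4, had no interval within 1 kb.

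**Figure D2:**
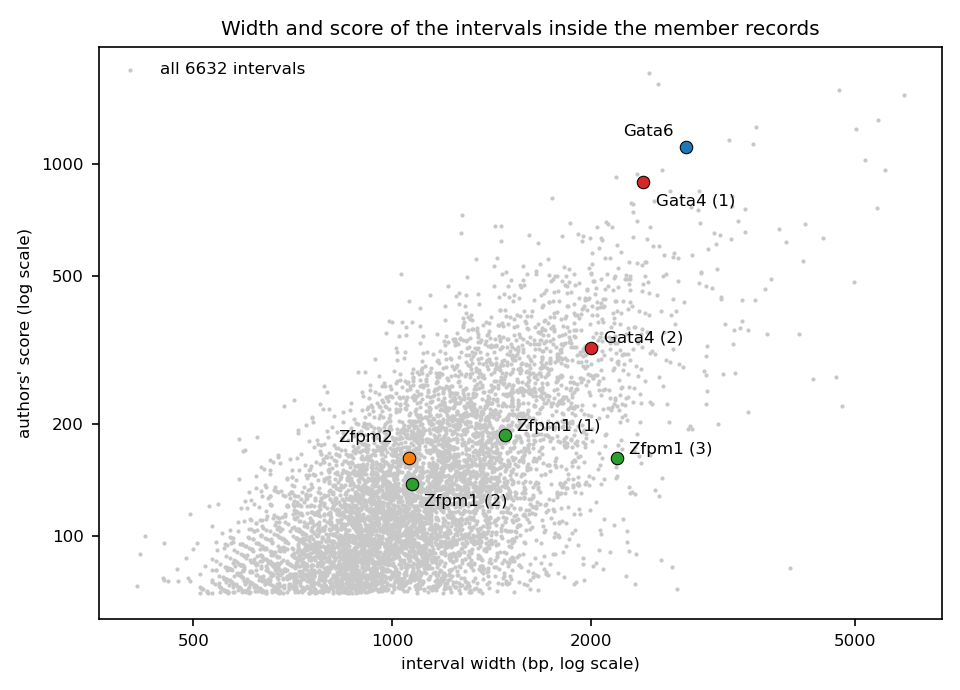
Each grey point is 1 of the 6632 intervals, with its width in bp on the horizontal and the authors' score on the vertical axis, both on log scales, and the coloured points are the 7 intervals inside the Gata4, Gata6, Zfpm1 and Zfpm2 records, numbered by position. Gata6 and the first Gata4 interval lie at the upper right, at 2775 and 2395 bp, whereas the third Zfpm1 interval is nearly as wide (2183 bp) with a score of 161.92.

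The intervals of Gata6 and Gata4 were wide as well as high in score. Of all intervals, 1.04% were as wide as the one at Gata6, and 1.9% as wide as the stronger one at Gata4, against a median width of 1084 bp. Their neighbours in the score order were wide too. Those of Gata6 (2775 bp) measured 3224, 3511, 5190 and 5553 bp. Those of Gata4 (2395 bp) measured 2341, 2180, 2422 and 2910 bp. Width therefore did not set Gata6 and Gata4 apart from these neighbours. When intervals were ranked by score per bp, Gata6 stood at 13 and Gata4 at 25. By score the 3 intervals of Gata6 and Gata4 lay above all 4 intervals of the FOG genes.

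Zfpm1, the FOG1 gene, best known as the partner of GATA1 in red cell and platelet precursors, had more intervals in its record than any of the other 7 genes. The first lay at chr8:122282457-122283935 (1479 bp, score 186.58, rank 1616) and the second at chr8:122284004-122285073 (1070 bp, 138.12, rank 2793), with a gap of only 68 bp. The third, at chr8:122335268-122337450 (2183 bp, 161.92, rank 2103), lay 50.2 kb further on and ended 412 bp inside the upper end of the 56.0 kb record (chr8:122281856-122337862). At least 3 intervals in a record were seen for 0.352% of protein-coding genes, and at least 2 for 2.6%. These shares cover records of any length, and the first 2 intervals of Zfpm1 are counted separately despite the 68 bp gap. The first 2 also lay in the record of Gm39269, a long noncoding RNA gene on the other strand, and the second ended 101 bp from a listed start of that RNA. Another interval (chr8:122376181-122377243, 104.51) was within 50 kb, 38.3 kb beyond the record, where it covered a start of Zc3h18 and of Gm39270.

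Zfpm2, the FOG2 gene, needed for heart and testis development, had 1 interval in a record of 449.6 kb. The interval lay at chr15:40655046-40656106 (1061 bp, score 161.36, rank 2111) and began 4 bp inside the lower end of the record (chr15:40655042-41104592). No other interval lay in the record or within 50 kb. Of the 352 protein-coding genes with records over 400 kb, 107 (30.4%) had an interval in the record or within 1 kb, a share close to that of all genes. The best scores of the FOG genes were 186.58 for Zfpm1 and 161.36 for Zfpm2, at 24.4% and 31.8% of the way down the score order. Those of Gata4 (894.01) and Gata6 (1114.18) ranked far above them.

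At the ends of the records, 3 of the 8 genes had an interval within 1 kb (Gata6, Zfpm1 and Zfpm2), against 27.1% of protein-coding genes. Zfpm1 had one at each end. All 8 genes were among the 10509 protein-coding genes over 10 kb long without another protein-coding gene end within 1 kb. In that set 2913 genes had an interval at an end and 23 of them (0.79%) at both. Ranked by the score at the weaker end, Zfpm1 stood in place 5 of the 23 (186.58 and 161.92). Place 1 was held by Chd4, the NuRD remodeller gene (330.4 and 335.49), whose upper-end interval also lies within 1 kb of the Nop2 record.

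The 4 GATA genes without an interval were not near one either. The nearest interval lay 98.9 kb from Gata5, 108.7 kb from Gata2, 159.7 kb from Gata3 and 385.1 kb from Gata1. These nearest intervals lay in other genes. They were in Lama5 for Gata5 (98.07), in Rpn1 for Gata2 (115.09), in Taf3 for Gata3 (74.31) and in Ppp1r3f for Gata1 (112.68), all below the median of the list. Such distances were common. On chromosomes with intervals, 37.1% of protein-coding genes lay farther from an interval than Gata5, 35.6% farther than Gata2, 30.1% farther than Gata3 and 18.9% farther than Gata1. The antisense or overlapping noncoding genes Gata5os, 4930412O13Rik and 9230102O04Rik at Gata3, and Gm38708 at Gata2 had none within 1 kb.

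**Figure D3:**
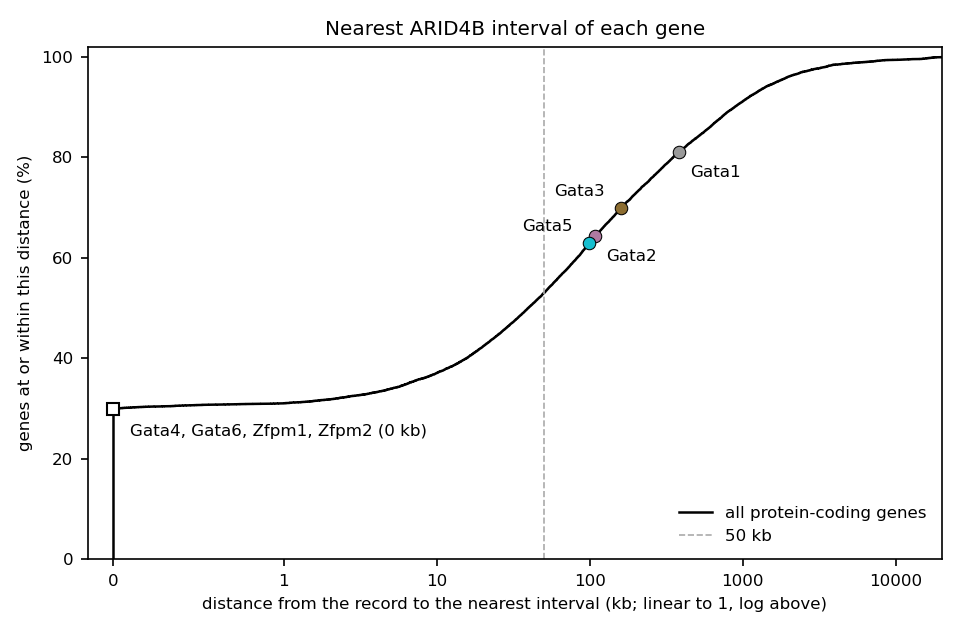
The curve gives the percentage of protein-coding genes (on chromosomes with intervals) whose record lies at or within a given distance (kb, linear up to 1 and log above) of an ARID4B interval, with the dashed line at 50 kb. The open square marks the 4 members with an interval in the record, and the circles mark Gata5 (98.9 kb), Gata2 (108.7 kb), Gata3 (159.7 kb) and Gata1 (385.1 kb), all to the right of the line.

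Gata1 is the member on the X chromosome (chrX:7959260-7976663). The X held 29 of the 6632 intervals, and 3.0% of its 966 protein-coding genes had one in the record or within 1 kb (5.59% within 50 kb). The lack of an interval at Gata1 was therefore the usual state on that chromosome. Its neighbour Hdac6, a cytoplasmic deacetylase gene 11213 bp away, had none either.

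A listed start of transcription was available for 5 of the 8 genes (Gata1, Gata2, Gata3, Gata5 and Zfpm1, with 2 starts for Gata2) in a table of promoter windows from RefSeq on GRCm38.p6. Gata4, Gata6 and Zfpm2 are not in it. An interval within 1 kb of a start was found for 1 of these 5 genes, Zfpm1, and for 28.0% of the 17492 protein-coding genes in the table. The Zfpm1 start is at chr8:122282141 on the plus strand, and its first interval began 316 bp downstream of it, with the midpoint 1055 bp downstream. Most genes differed from this layout. Over the 4896 genes with an interval near a start, the midpoint lay a median of 196 bp downstream, the interval covered the start in 86.8%, and the midpoint lay farther downstream than that of Zfpm1 in 2.04%.

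The windows, 250 bases before to 50 after the start, are printed for Zfpm1, the promoter with an interval, and for Gata2, Gata5 and Gata1 as promoters without one that range from rich to poor in CpG. Capitals mark each CpG dinucleotide, and sequences run 5′ to 3′ on the strand of the gene. The windows are chr8:122281891-122282190 (plus strand) for Zfpm1, chr6:88193641-88193940 (plus) for the first Gata2 start, chr2:180334630-180334929 (minus) for Gata5 and chrX:7967861-7968160 (minus) for Gata1.
Zfpm1: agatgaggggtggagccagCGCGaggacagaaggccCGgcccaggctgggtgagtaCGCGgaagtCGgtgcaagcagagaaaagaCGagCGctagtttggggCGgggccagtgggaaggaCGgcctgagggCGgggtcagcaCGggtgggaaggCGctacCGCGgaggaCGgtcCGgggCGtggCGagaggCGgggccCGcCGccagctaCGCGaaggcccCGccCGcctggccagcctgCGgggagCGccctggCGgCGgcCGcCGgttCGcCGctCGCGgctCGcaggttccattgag
Gata2: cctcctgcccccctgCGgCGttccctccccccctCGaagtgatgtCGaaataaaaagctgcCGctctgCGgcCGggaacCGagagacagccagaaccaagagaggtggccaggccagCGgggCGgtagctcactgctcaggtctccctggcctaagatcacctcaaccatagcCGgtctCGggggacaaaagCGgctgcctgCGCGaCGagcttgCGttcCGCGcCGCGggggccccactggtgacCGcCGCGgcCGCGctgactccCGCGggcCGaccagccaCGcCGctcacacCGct
Gata5: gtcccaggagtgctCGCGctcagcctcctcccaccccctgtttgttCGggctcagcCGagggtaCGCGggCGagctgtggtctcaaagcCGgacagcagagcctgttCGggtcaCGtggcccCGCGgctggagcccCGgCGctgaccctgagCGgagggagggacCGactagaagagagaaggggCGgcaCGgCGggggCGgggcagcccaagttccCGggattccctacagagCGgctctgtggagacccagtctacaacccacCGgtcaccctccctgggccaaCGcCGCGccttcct
Gata1: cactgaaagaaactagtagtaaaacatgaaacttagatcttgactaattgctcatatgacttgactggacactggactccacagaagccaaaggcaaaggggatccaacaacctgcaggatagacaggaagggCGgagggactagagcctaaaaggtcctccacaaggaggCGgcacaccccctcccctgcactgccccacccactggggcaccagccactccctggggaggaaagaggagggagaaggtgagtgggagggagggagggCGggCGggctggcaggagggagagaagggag

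The Zfpm1 window held 37 CpG, more than 92.7% of the 21263 protein-coding promoter windows, and was 73.7% G or C. The windows without an interval followed with 32 CpG at the first and 29 at the second Gata2 start, 26 at Gata5 and 22 at Gata3, all above the median of 13 for all windows. Gata1 had 4, fewer than that median. Across all windows, intervals within 1 kb of the start became more frequent with CpG count. They were found at 1.26% of the 6035 windows with up to 4 CpG, the class of Gata1, at 42.9% of the 2378 with 20 to 24, the class of Gata3, at 51.0% of the 1980 with 25 to 29, at 62.6% of the 1343 with 30 to 34 and at 64.5% of the 859 with 35 to 39, the class of Zfpm1. The first Gata2 start thus belonged to the class in which 62.6% of windows had an interval, and had none. Gata5 and the second Gata2 start belonged to the class with 51.0%, close to an even split, and had none. Windows of 1 gene can overlap, so they are not independent, and these shares describe this list only.

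**Figure D4:**
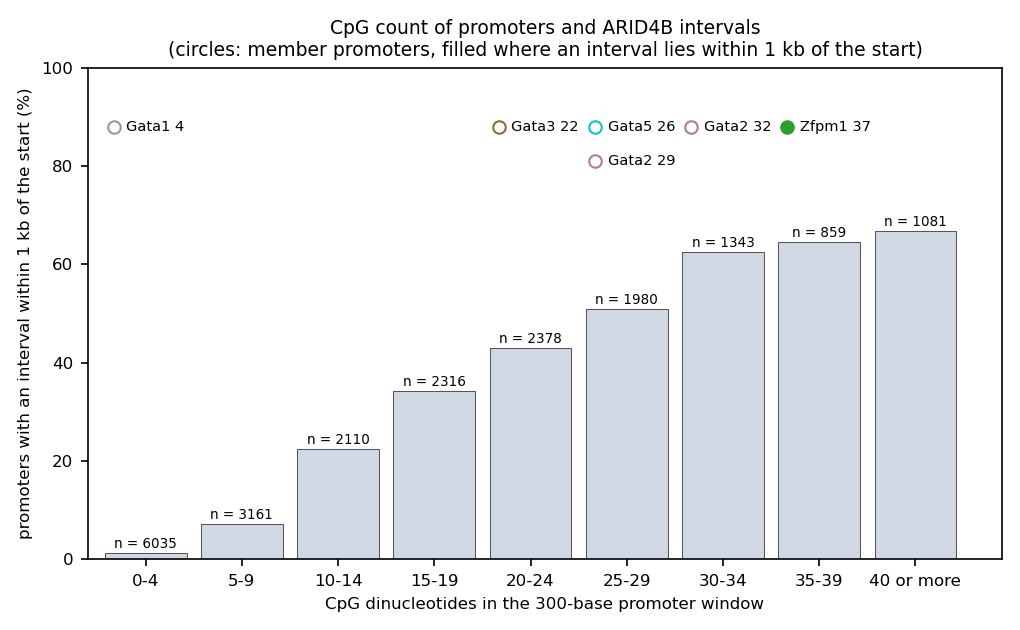
Bars give the percentage of protein-coding promoter windows with an ARID4B interval within 1 kb of the start, by the number of CpG dinucleotides in the 300-base window (n is the number of windows). Circles above the bars mark the 6 member windows at their CpG counts, and the filled one, Zfpm1 with 37, is the only one with an interval.

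Short motifs did not separate Zfpm1 from the others. The GATA motif was searched as AGATAA or AGATAG or TGATAA or TGATAG, and the GC box as GGGCGG, each on both strands. A GATA motif was found only in the Gata3 window (1 match), and in 26.0% of all protein-coding windows. GC boxes were found in all 6 member windows, with 3 at Zfpm1, Gata1 and the second Gata2 start, 2 at Gata3 and Gata5 and 1 at the first Gata2 start, counting overlapping matches, and in 46.2% of all windows. A match describes the letters of a window and does not show binding.

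Genes that work with the GATA and FOG proteins were described by 5 lists, chosen with earlier results of these data known. Each list is given by its count of genes with an interval in the record or within 1 kb. That count is to be read beside the 30.7% of all protein-coding genes. The median best score of the genes with an interval is to be read beside the 131.83 of the 6709 such genes in the genome. Of 20 cofactor genes bound by FOG or GATA proteins, 12 had one, with a median best score of 290.36. The best were at Ctbp2, a corepressor that FOG proteins bind (595.16, near Gm35364), the acetyltransferase gene Ep300 (488.61), the bromodomain gene Brd3 (390.42) and the deacetylase gene Hdac1 (372.07). The interval counted for Hdac1 lay 733 bp outside its record and is shared with Marcksl1. The 8 cofactor genes without one included Hdac2, Mbd2 and Ctbp1, whose nearest intervals were 134.3, 95.4 and 60.1 kb away. They also included Mbd3, Mta1 and Med1, whose nearest intervals lay beyond the 1 kb limit, at 3.6, 2.7 and 1.5 kb. Of 9 other genes with a GATA-type zinc finger, 5 of which are also cofactor genes, 3 had one, with a median of 197.59: Gatad2a (273.76), Mta2 (197.59, shared with Eml3) and Rere (146.64). Trps1, a GATA-type repressor gene, was 1100.3 kb from the nearest interval.

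Of 32 gonadal partners and genes regulated by GATA4 and FOG2, 18 (56.2%) had an interval. The Hedgehog receptor gene Ptch1 (1261.13), Nr5a1, which encodes the steroidogenic factor SF1 and directly partners GATA4 (695.01), the Sertoli cell regulator Wt1 (626.23) and the inhibin subunit gene Inhbb (421.1) led this list. The median best score of the 18 genes was 236.3. Genes of steroid synthesis on the list, Star, Cyp11a1, Cyp17a1, Hsd3b1, Hsd17b3 and Cyp19a1, had none. Lhx2, Amhr2, Nr0b1, Insl3, Fshr, Lhcgr and Dkk1 had none either, so the absence was not limited to steroid synthesis. Sry lies on the Y chromosome, on which the deposited list has no interval.

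Of 24 blood-cell partners and genes regulated by GATA1, GATA2 and GATA3, 6 had an interval, led by Cebpa (324.46), Runx1 (220.64), Ldb1 (149.36) and Tal1 (120.3), with a median of 134.83. The other 2 were Epor, the erythropoietin receptor gene (74.31), and Bcl11b (72.35). Among the genes of this list without an interval were the globin genes Hbb-bs and Hba-a1, Klf1 and Alas2. Spi1, Kit and Il4 had none either, and red cell genes were not compared with the rest of the list. The globin genes have near-identical copies, and how reads that map to several copies were treated is not given in the sources used here. Of 20 heart and endoderm partners 4 had one, with a median of 161.31: Srf (506.52), Klf5 (211.07), Foxa2 (111.55) and Nkx2-5 (83.39). The members' own best scores, 1114.18 for Gata6 and 894.01 for Gata4, exceeded every score of these lists but that of Ptch1.

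**Figure D5:**
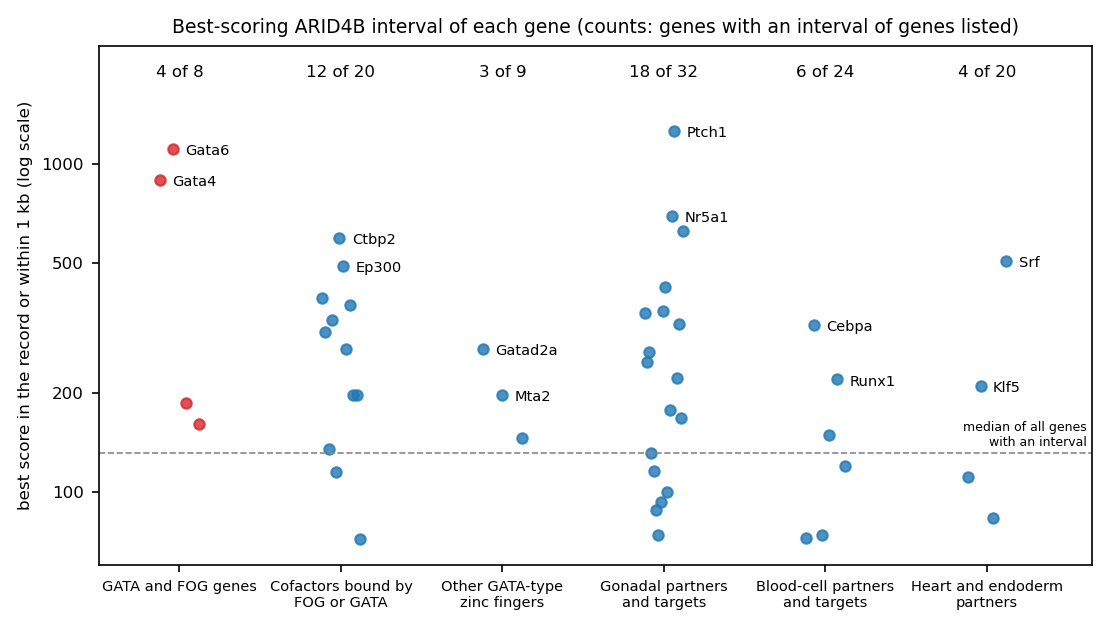
Each point is 1 gene with an interval in its record or within 1 kb, with the authors' best score on a log scale, for the 8 GATA and FOG genes (red) and the 5 lists (blue), and the numbers above give genes with an interval of genes listed. The dashed line is the median of all such genes (131.83), and Gata6 and Gata4 lie above all listed genes except Ptch1.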

How the data were processed

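ChIP-seq was done on 1 anti-ARID4B library and 1 input library from whole testes. The build mm9 and the tools BWA and MACS are named, per the submitters' processing notes, without versions or settings. The authors deposited 1 list with a score per interval, which the file name calls a p-value although all values exceed 70, so the scale of the score is not known. Read depth is unknown. The list is named for mm10: in place, 80.3% of intervals came within 1 kb of protein-coding record ends in the RefSeq table of GRCm38.p6, and 13.3 or 12.9% after a shift of 5 kb, so positions were read as GRCm38 and are printed counting from 1.

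Overlaps of at least 1 bp with gene records were counted in Python 3.11.15 with pandas 2.3.3 and tested on simulated data. The gene table gives no strand, so strand and starts came from the promoter table. The members, lists and rules were chosen with earlier results of these data known. Named were the 8 members, the 4 best of each list, the neighbours within 50 kb that an interval overlaps, and the 2 intervals above and below the 2 best members in the score order. List members without an interval, Epor, Bcl11b, Chd4 and further neighbours of members were picked with their values in view. Alternatives were distances of 10 and 100 kb, other windows at ends, intervals above the median score, midpoints, ranks by width, and records of at least 5 kb as background.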

Additional observations from a re-analysis of the deposited data

How the results depend on the processing

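Of 39 alternative values, 30 stayed close to those reported: counts within 1.5 times, and ranks within the 95% binomial interval of their place in the list. Some of the 30 could not move, so their number does not measure stability. These were the ranks among intervals above the median score, and the member counts beside the background of records of at least 5 kb. Gata4, Gata6, Zfpm1 and Zfpm2 were the 4 genes counted with 10 kb, with midpoints and with intervals above the median score, and with 100 kb Gata5 was added (5 of 8). The background moved more, from 52.3% to 36.6% with 10 kb, 62.4% with 100 kb, 34.0% with intervals above the median score, and 57.5% for records of at least 5 kb. When the midpoint had to lie within 1 kb of a gene end, the count fell from 3 genes to 1 (Zfpm2), beside a background of 24.7% in place of 27.1%, since the other midpoints lie 1869 bp (Gata6) and 1340 and 1503 bp (Zfpm1) inside the record. Ranked by width, the best intervals stood at 126 (Gata4), 69 (Gata6), 1234 (Zfpm1) and 3492 (Zfpm2), and by score per bp that of Zfpm1 at 3021 and that of Zfpm2 at 1843. With intervals above the median score, 3 of 24 blood-cell genes and 2 of 20 heart and endoderm genes had one, where the share of all genes also fell, from 30.7% to 16.7%. No paired analysis was possible because there is 1 library of each kind. Without replicates or known depth, the lack of an interval shows only that none was called.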

Other observations

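Zfpm1 belongs to the 23 genes over 10 kb with intervals at both ends of the record. Whether these 23 genes share a function was not tested. After Chd4 came Sema6c, a semaphorin gene (323.69 and 490.96), Ttyh3 (199.29 and 273.69) and Zdhhc4 (202.5 and 175.28). Below Zfpm1 came Dhx33 (252.47 and 149.1), Nploc4 (232.21 and 142.95), Smg6 (139.18 and 1584.47) and Dock6 (124.7 and 186.12). Among the others were Smad6, an inhibitory SMAD gene of BMP signalling (113.63 and 771.97), Thra, a thyroid hormone receptor gene (124.59 and 92.94), and Tsc22d1 (92.72 and 85.97). In no case was the interval at both ends the same one. These genes were named after their values were seen.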
